A study of Homo sapiens with 18 samples.

Results

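The 46 genes described here encode proteins of the synaptic vesicle and of the synapse around it. They comprise 8 genes of the vesicle membrane, 5 synaptotagmins, 6 SNAREs, 8 docking and priming factors, 2 active zone scaffolds, 3 endocytosis genes, 5 adhesion molecules, 7 postsynaptic scaffolds and 2 synucleins. The genes are a list of symbols grouped by function, drawn up with earlier results of these data known but with no threshold on a measured value, and all 46 were found by Ensembl ID among the 60612 genes of the count table. RNA was sequenced from HepG2, an established hepatocellular carcinoma line, and from SH-SY5Y, an established neuroblastoma line of sympathetic origin. Each line received either a control plasmid, which encodes mNeonGreen, a green fluorescent protein, or a plasmid that encodes mNeonGreen and the miRNA EXACT1, with 3 libraries in each of the 4 groups. HepG2 cells were transfected by lipofection with 100 ng of plasmid per well and SH-SY5Y cells by nucleofection, so line and transfection method cannot be told apart. Cells of all 4 groups carried a plasmid, and untransfected cells were not analysed here.

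Neurotransmitter is released when a filled vesicle docks at the active zone, is primed by RIM, Munc13 and CAPS proteins, and fuses through a SNARE complex that synaptotagmins couple to calcium. The vesicle membrane is then recovered by dynamin and its partners, while neurexins and neuroligins hold the presynaptic and postsynaptic sides together and SHANK, HOMER, DLG and gephyrin scaffolds anchor receptors. Several of these proteins have close relatives that serve fusion and endocytosis in all cells, and SH-SY5Y cells are dividing neuroblasts that hold parts of this machinery without forming mature synapses.

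The 12 libraries held between 66056962 and 77100150 counts. All 20 hepatocyte markers were higher in HepG2 and 20 of 21 sympathetic neuroblast markers were higher in SH-SY5Y, where the neuroblast markers summed to 5236 to 8367 CPM (the usual unit of counts relative to library size, here TMM-scaled), against 32.0 to 39.4 CPM in HepG2. PRPH, the neurofilament protein peripherin, was at 0 in all HepG2 libraries, and TH, the enzyme that starts catecholamine synthesis, did not pass the test and was near 0 in SH-SY5Y as well (0.125 ± 0.100 CPM, SD, n = 6). A single library stood apart in each line: EXACT1 replicate 1 of HepG2 and control replicate 2 of SH-SY5Y gave 9.83% and 12.95% of their counts to ribosomal protein genes, against 4.64% to 5.92% in the other 10 libraries. Results that rest on these libraries are given with and without them. The labels do not say whether replicates came from separate cultures, so p-values measure the spread between these libraries, which may be technical.

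The start-site sequences of 3 of the genes are shown as examples, and each holds a motif searched: SYN1 and UNC13A were far higher in SH-SY5Y and VAMP3 was higher in HepG2. The sequences are from RefSeq on build GRCh38.p14, written 5′ to 3′ in the direction of the gene and cut to the part outside annotated exons. They lie at chrX:47619944-47620107 (minus strand, SYN1), chr19:17688366-17688604 (minus strand, UNC13A) and chr1:7771046-7771268 (plus strand, VAMP3). Capitals mark the core words of the RE1 element (CAGCACC and GGACAG), a cAMP response element (TGACGTCA) and a GC box (GGGGCGGGG or its reverse complement), searched on both strands.
SYN1: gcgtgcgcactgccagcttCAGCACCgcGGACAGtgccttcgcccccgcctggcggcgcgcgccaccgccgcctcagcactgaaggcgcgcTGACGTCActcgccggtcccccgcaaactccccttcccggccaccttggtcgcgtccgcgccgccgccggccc
UNC13A: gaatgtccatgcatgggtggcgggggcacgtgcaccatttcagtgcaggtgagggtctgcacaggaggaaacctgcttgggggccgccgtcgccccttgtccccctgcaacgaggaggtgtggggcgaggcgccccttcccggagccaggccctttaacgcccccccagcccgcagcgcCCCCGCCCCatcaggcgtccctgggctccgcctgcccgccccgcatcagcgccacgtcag
VAMP3: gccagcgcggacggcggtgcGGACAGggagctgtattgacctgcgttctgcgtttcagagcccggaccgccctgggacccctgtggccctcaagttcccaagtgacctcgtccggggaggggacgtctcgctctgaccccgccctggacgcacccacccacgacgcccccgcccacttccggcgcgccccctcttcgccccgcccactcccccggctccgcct

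RefSeq promoter windows were matched for 38 of the 46 genes, in 62 windows. Both RE1 cores with a gap of 2 bases were found only in the window of SYN1 among these genes, and in 16 of 35116 windows (0.0456%) over all genes. With or without the other core, the left core was in 12 of the 62 windows and in 6.16% of all windows, and the right core in 14 of the 62 and in 17.2%. The palindromic cAMP response element was in 2 of the 62 windows, those of SYN1 and DLG4, and in 1.65% of all windows. The GC box was in 14 of the 62 and in 15.1%. The 26 matched genes called higher in SH-SY5Y and the 7 called higher in HepG2 had median GC contents of 68.2% and 68.0%, against 58.0% over all windows. A match is a description of these letters and not of a bound site.

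**Figure D1:**
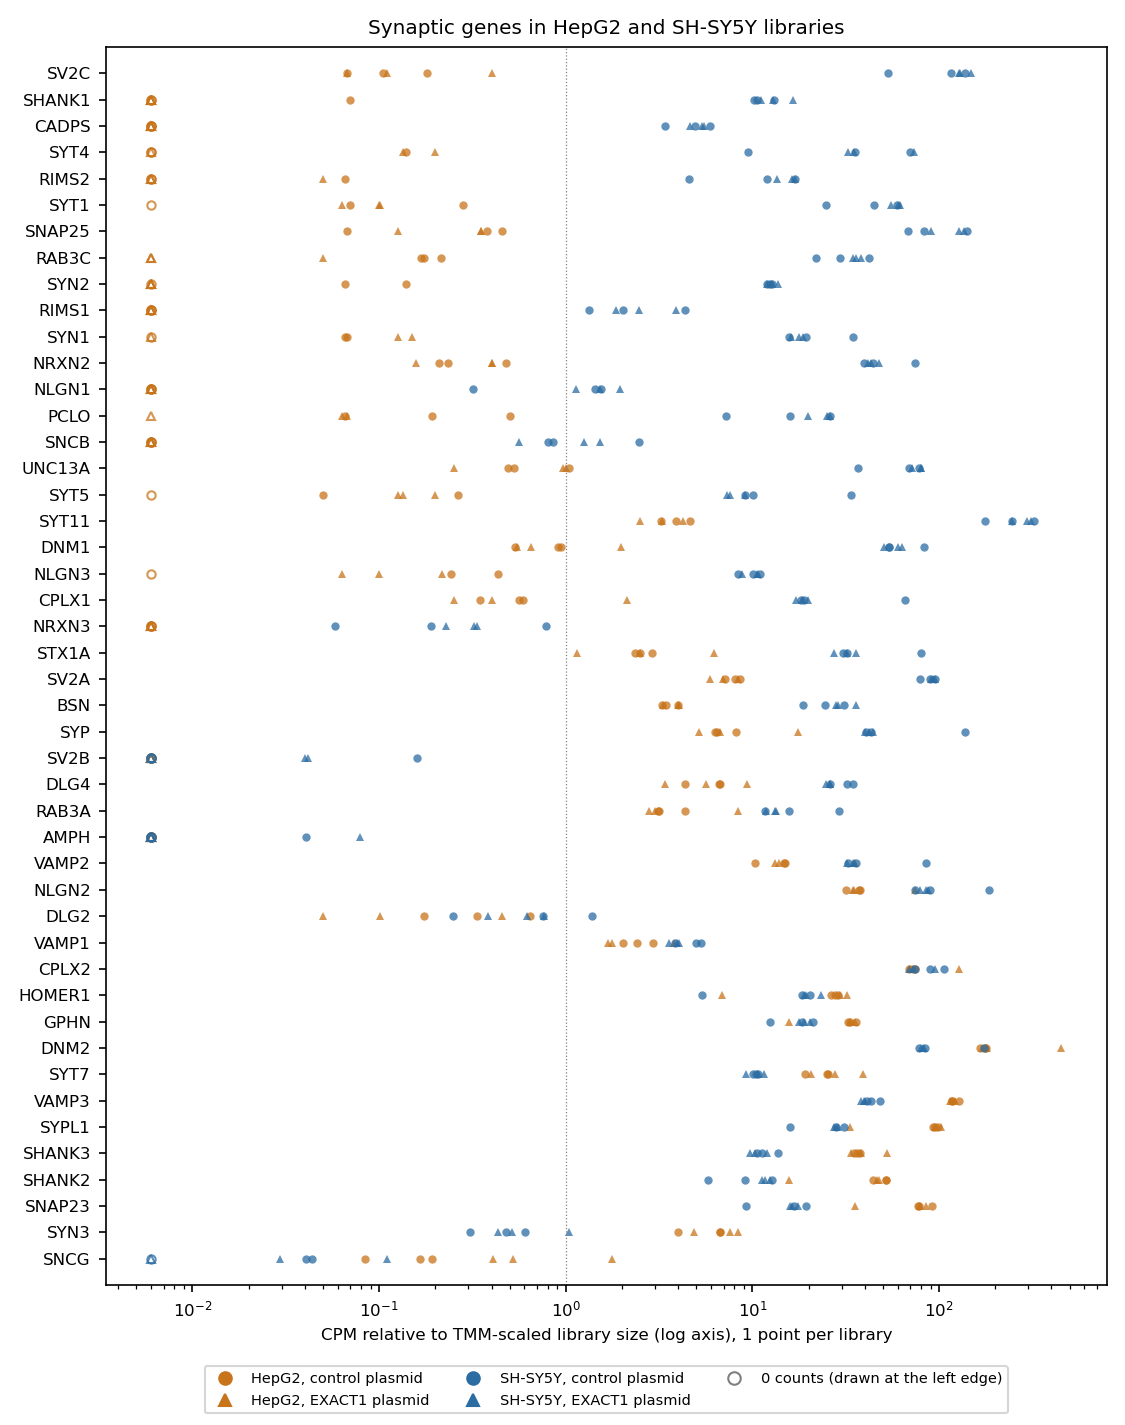
Level of each of the 46 genes in each of the 12 libraries, as CPM on a log axis, ordered by the ratio of the line means, each with a small constant added. Orange is HepG2 and blue SH-SY5Y, circles are control and triangles EXACT1 libraries; open symbols at the left edge mark 0 counts. At the top the SH-SY5Y points lie far to the right of the HepG2 points, and in the lowest rows the order is turned.

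Most of these genes were higher in SH-SY5Y, and the general relatives SNAP23, VAMP3, SYPL1 and DNM2 were higher in HepG2. Of the 46 genes, 44 had counts enough to test, 31 were higher in SH-SY5Y and 10 were higher in HepG2 (edgeR quasi-likelihood test, adjusted p under 0.05). Over all 22009 genes tested, 36.3% were higher in SH-SY5Y and 28.5% in HepG2. Within HepG2 alone only 29 of the 46 genes passed the count filter, and 43 did so within SH-SY5Y. Genes that passed only through SH-SY5Y could hardly be called higher in HepG2, and SNCG passed only through HepG2. The split of the calls was therefore in part set by the filter. The 10 genes higher in HepG2 were SYN3, SYPL1, SYT7, SNAP23, VAMP3, DNM2, SHANK2, SHANK3, GPHN and SNCG. CPLX2, DLG2 and HOMER1 did not pass the test, and SV2B and AMPH were too low in both lines to be tested. In these bulk libraries a smaller number of expressing cells and less RNA per cell cannot be told apart.

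The median log2 difference of the 44 tested genes, SH-SY5Y minus HepG2, was 4.48, against 0.25 over all genes. It was 3.66 with the genes at 0 in all HepG2 libraries set to a lower bound of 3 counts per library. Both medians include the genes that passed the count filter only through SH-SY5Y. Library values in CPM did not overlap between the lines for 29 genes higher in SH-SY5Y and 7 higher in HepG2, against 25.6% and 20.9% of all genes. On mean level, 40 of the 46 genes were above 1 CPM in SH-SY5Y and 21 in HepG2, and 20 were above 1 CPM in both. The mean level was over 10-fold higher in SH-SY5Y for 19 genes with counts in HepG2, over 100-fold for 11 of them, and over 10-fold on the lower bound for 4 more. In the other direction the ratio of means was 14.0 for SNCG, which had 21 counts in all SH-SY5Y libraries, and 11.3 for SYN3. The SNCG ratio rests in part on the outlying HepG2 library, which held 71 of its 154 HepG2 counts. Scaling by library totals alone moved the differences of the 44 genes up by 0.30 to 0.88 on the log2 scale (median 0.80) and gave 33 and 8 calls, with 11744 and 4183 genes called in the 2 directions over all genes against 7979 and 6268. Leaving out both outlying libraries gave 32 and 11 calls, with HOMER1 and DLG2 added.

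**Figure D2:**
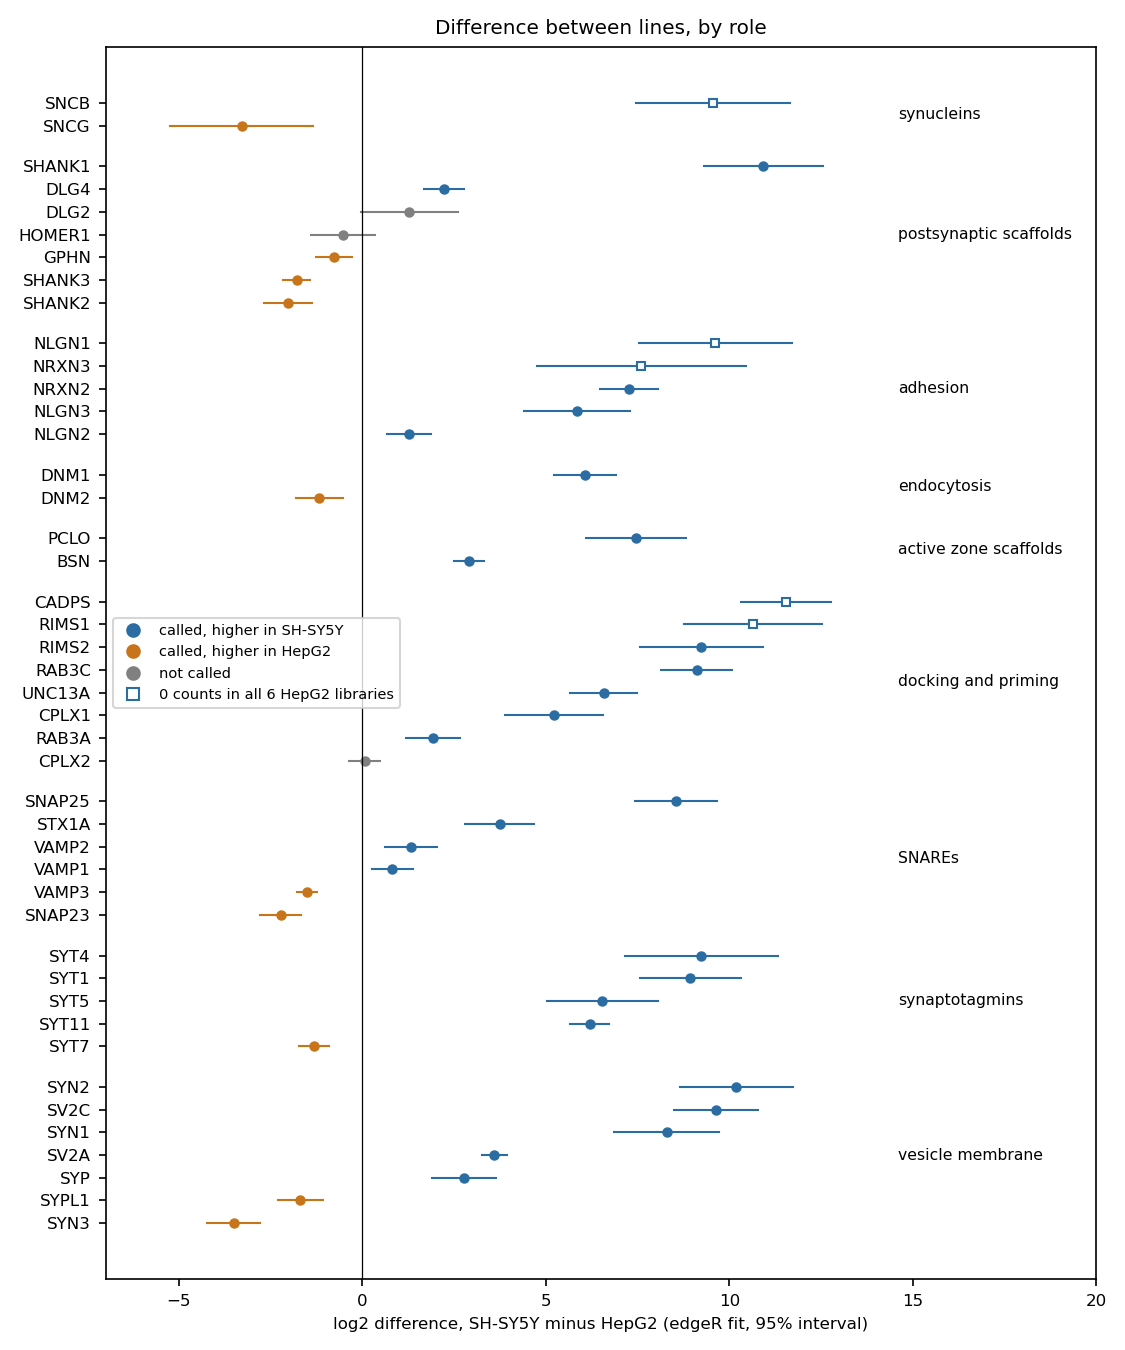
Fitted log2 difference between lines (SH-SY5Y minus HepG2) with its 95% interval for the 44 tested genes, grouped by role. Blue points are higher in SH-SY5Y, orange points are higher in HepG2, grey points were not called, and open squares have 0 counts in all HepG2 libraries, so that their position is a fitted value and no bound.

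Of the 8 vesicle membrane genes, 5 were higher in SH-SY5Y and 2 in HepG2. SV2A, a vesicle glycoprotein and the target of the antiepileptic levetiracetam, had the highest level per length of this group in SH-SY5Y (18.7 CPM per kb of exon). Its lowest, median and highest libraries were 79.2, 91.7 and 94.7 CPM in SH-SY5Y and 5.91, 7.59 and 8.53 CPM in HepG2. The SV2A libraries of the lines did not overlap, and the log2 difference was 3.59 (SE 0.15, adjusted p = 9.29e-09). SV2C, its relative, was at 53.1 to 148.8 CPM in SH-SY5Y and at most 0.401 CPM in HepG2, whereas SV2B was listed at 0 in HepG2 and reached at most 0.160 CPM in SH-SY5Y. SV2A and SV2C were thus abundant in the neuroblastoma line and SV2B was near 0.

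The synapsins, which tether vesicles to the reserve pool, were split in direction. SYN2 had the largest fitted difference of the vesicle membrane group, which rests on 12 counts in HepG2 (by the ratio of means SV2C was higher, at 765-fold against 368-fold), with 12.0, 12.6 and 13.6 CPM as lowest, median and highest library in SH-SY5Y and 0, 0 and 0.139 CPM in HepG2 (log2 difference 10.19, SE 0.68, adjusted p = 1.56e-06). SYN1 was at 15.7 to 34.8 CPM in SH-SY5Y and at most 0.150 CPM in HepG2. SYN3 went the other way, with 3.99, 6.70 and 8.35 CPM in HepG2 and 0.306, 0.498 and 1.04 CPM in SH-SY5Y (log2 difference −3.51, SE 0.33, adjusted p = 3.66e-06). The SYN3 gene (22:32512552-33058372, GRCh38) spans TIMP3, a metalloproteinase inhibitor gene on the opposite strand that shares no exon base with it and whose mean level was 396 CPM in HepG2 against 43.7 CPM for SH-SY5Y. Whether the counting used strand is not given in the sources used here, and the part of TIMP3 reads in the SYN3 values was not tested.

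Among the 5 synaptotagmins, calcium sensors and related vesicle proteins, 4 were higher in SH-SY5Y and 1 in HepG2. SYT11, a non-calcium-binding member, was the most abundant per length of all 46 genes in SH-SY5Y, at 50.8 CPM per kb. Its libraries ran from 177 to 321 CPM with a median of 272 CPM in SH-SY5Y, and from 2.505 to 4.60 CPM with a median of 3.57 CPM in HepG2 (log2 difference 6.20, SE 0.24, adjusted p = 5.62e-09). SYT1, the main fast calcium sensor, was at 24.8 to 61.6 CPM against at most 0.280 CPM, and SYT5 at 7.35 to 33.9 CPM against at most 0.264 CPM. SYT4 had the largest difference of the group, 9.23 on the log2 scale (SE 0.94, adjusted p = 7.56e-06), and the largest ratio of highest to lowest library within SH-SY5Y in this group, with 9.42, 35.3 and 73.4 CPM as lowest, median and highest library against 0, 0.0670 and 0.200 CPM in HepG2. SYT7, which serves slow release and lysosome fusion in many cell types, was higher in HepG2, with 19.1, 25.3 and 39.1 CPM against 9.23, 10.6 and 11.6 CPM (log2 difference −1.31, SE 0.19, adjusted p = 8.34e-05).

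Of the SNAREs, the proteins that drive fusion, SNAP25, STX1A, VAMP2 and VAMP1 were higher in SH-SY5Y, and SNAP23 and VAMP3, relatives that act in many cell types, were higher in HepG2. SNAP25 (ENSG00000132639, 20:10218830-10307418) ran from 68.0 to 141.7 CPM with a median of 109 CPM in SH-SY5Y, and from 0.0670 to 0.453 CPM with a median of 0.351 CPM in HepG2. Its log2 difference was 8.55 (SE 0.51, adjusted p = 1.29e-07). SNAP23 (ENSG00000092531, 15:42491233-42545356) had 9.26, 16.5 and 19.3 CPM in SH-SY5Y and 35.2, 78.6 and 91.1 CPM in HepG2 as lowest, median and highest library (log2 difference −2.22, SE 0.26, adjusted p = 1.83e-05). STX1A, the plasma membrane syntaxin, was at 27.3 to 80.0 CPM against 1.15 to 6.19 CPM, but it shares 662 exon bases with BUD23 on the opposite strand. VAMP1 differed least, by 0.81 on the log2 scale (SE 0.25, adjusted p = 0.0153), and its libraries overlapped, only through the outlying HepG2 library. VAMP1 shares 339 exon bases with TAPBPL, and SNAP23 shares 221 with LRRC57, both on the opposite strand.

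VAMP2 (17:8159149-8163546) is the synaptic vesicle SNARE synaptobrevin-2, and VAMP3 (1:7771269-7781432) is cellubrevin, its counterpart in recycling endosomes. VAMP2 had 32.1, 34.9 and 85.2 CPM in SH-SY5Y and 10.4, 14.3 and 35.5 CPM in HepG2, so that the libraries of the lines overlapped. They did so only through the outlying HepG2 library, and the other HepG2 libraries reached at most 15.0 CPM. The VAMP2 log2 difference was 1.32 (SE 0.32, adjusted p = 0.00412). VAMP3 ran from 38.2 to 48.1 CPM in SH-SY5Y and from 114 to 128 CPM in HepG2, where it had the highest level per length of all 46 genes (43.1 CPM per kb). The log2 difference of VAMP3 was −1.51 (SE 0.12, adjusted p = 8.73e-07).

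Of the 8 docking and priming genes, 7 were higher in SH-SY5Y and none in HepG2. CADPS, the priming factor CAPS1 of dense-core vesicles, ran from 3.39 to 5.95 CPM with a median of 5.13 CPM in SH-SY5Y and had 0 counts in all 6 HepG2 libraries, so that it was at least 91.6-fold higher in SH-SY5Y against a floor of 3 counts per HepG2 library. RIMS1, an active zone organizer, was also at 0 in HepG2 and was at least 49.0-fold higher on the same floor. RIMS2, its relative, was at 4.60 to 16.9 CPM in SH-SY5Y and held 7 counts in HepG2 in all. UNC13A, the vesicle primer Munc13-1, was at 36.6 to 80.0 CPM against 0.250 to 1.04 CPM. RAB3C was at 21.95 to 42.1 CPM against at most 0.214 CPM, while RAB3A, the main vesicle Rab GTPase, differed by only 1.93 on the log2 scale (SE 0.33, adjusted p = 0.000403). RAB3A shares 165 exon bases with MPV17L2 on the opposite strand.

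The complexins, which clamp and activate the SNARE complex, differed in their line difference. CPLX1 was at 17.1 to 65.7 CPM in SH-SY5Y and at 0.252 to 2.13 CPM in HepG2 (log2 difference 5.22, SE 0.60, adjusted p = 1.89e-05). CPLX2 was at a high level in both lines, with 69.0, 81.7 and 105.6 CPM in SH-SY5Y and 68.7, 71.5 and 128.5 CPM in HepG2. The CPLX2 libraries overlapped, and its difference of 0.07 on the log2 scale had a 95% interval from −0.35 to 0.49 (adjusted p = 0.777). With library totals as the only scaling the CPLX2 difference was 0.89 and passed the test. CPLX2 had the highest level per length of its role in both lines, at 11.9 CPM per kb in SH-SY5Y and 11.4 CPM per kb in HepG2.

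Both active zone scaffolds, giant proteins that organize the release site, were higher in SH-SY5Y. BSN, bassoon, had 18.7, 28.3 and 35.9 CPM against 3.27, 3.70 and 4.05 CPM (log2 difference 2.91, SE 0.18, adjusted p = 1.62e-07). PCLO, piccolo, had the larger difference, with 7.17, 22.5 and 25.9 CPM against 0, 0.0665 and 0.503 CPM (log2 difference 7.46, SE 0.62, adjusted p = 1.44e-06). Of the endocytosis genes, AMPH, amphiphysin, was at or near 0 in all 12 libraries. DNM1 (9:128191655-128255248), the neuronal dynamin that cuts vesicles from the membrane, had 50.8, 56.8 and 83.4 CPM against 0.536, 0.780 and 1.98 CPM, a log2 difference of 6.06 (SE 0.38, adjusted p = 2.05e-07). DNM2 (19:10718079-10833488), the dynamin of all cells, had 78.1, 82.3 and 175 CPM in SH-SY5Y and 166, 177 and 452 CPM in HepG2 (log2 difference −1.17, SE 0.29, adjusted p = 0.00413), and it shares 776 exon bases with TMED1 on the opposite strand. The highest DNM2 value of each line came from its outlying library, and the lines overlapped only through the SH-SY5Y library.

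All 5 adhesion genes were higher in SH-SY5Y. NLGN1, a neuroligin of excitatory synapses, had 0.320, 1.48 and 1.94 CPM in SH-SY5Y and 0 counts in all HepG2 libraries, at least 24.3-fold higher on the floor of 3 counts per library. NRXN3 was at 0 in HepG2 as well, but only at 0.0582 to 0.780 CPM in SH-SY5Y, at least 5.90-fold higher. NRXN2 was at 39.8 to 74.4 CPM against at most 0.478 CPM, and NLGN3 at 8.36 to 10.9 CPM against at most 0.436 CPM. NLGN2, the neuroligin of inhibitory synapses, had the highest level per length of this role in both lines. It ran from 74.6 to 185 CPM with a median of 86.3 CPM in SH-SY5Y and from 31.9 to 73.8 CPM with a median of 36.0 CPM in HepG2 (log2 difference 1.26, SE 0.27, adjusted p = 0.00180).

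The postsynaptic scaffolds were the only role with more genes higher in HepG2 (3) than in SH-SY5Y (2). Within the SHANK family, master scaffolds of the postsynaptic density, direction differed between members. SHANK1 had 10.2, 12.0 and 16.6 CPM in SH-SY5Y, and its HepG2 counts were 0 in 5 libraries and 4 in the other (log2 difference 10.93, SE 0.72, adjusted p = 1.44e-06). SHANK2 had 5.76, 11.4 and 12.8 CPM in SH-SY5Y and 15.7, 47.1 and 52.2 CPM in HepG2 (log2 difference −2.03, SE 0.29, adjusted p = 0.000104). SHANK3 had 9.72, 10.9 and 13.6 CPM against 33.7, 37.0 and 52.8 CPM (log2 difference −1.79, SE 0.16, adjusted p = 2.74e-06). The ranges of all 3 SHANK genes were separate between the lines.

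GPHN, gephyrin, which anchors inhibitory receptors and also completes molybdenum cofactor synthesis in other tissues, was higher in HepG2, with 15.6, 33.4 and 36.0 CPM against 12.4, 18.7 and 21.2 CPM (log2 difference −0.77, SE 0.22, adjusted p = 0.0100). Scaling by library totals alone moved the GPHN difference to 0.02. DLG4, the postsynaptic density protein PSD-95, was higher in SH-SY5Y by 2.23 on the log2 scale (SE 0.25, adjusted p = 1.47e-05). HOMER1 was at −0.53 (SE 0.39, adjusted p = 0.256) with all libraries and at −0.56 (SE 0.08, adjusted p = 8.14e-05) without both outlying libraries, which held the lowest HOMER1 value of each line. DLG2, at no more than 1.38 CPM in any library, had a log2 difference of 1.28 (SE 0.60, adjusted p = 0.0843).

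The synucleins, small presynaptic lipid-binding proteins, were low in both lines. SNCB had 0.559, 1.05 and 2.46 CPM in SH-SY5Y and 0 counts in HepG2, at least 22.9-fold higher on the same floor. SNCG had 0.0838, 0.300 and 1.78 CPM in HepG2 and 0, 0.0351 and 0.111 CPM in SH-SY5Y, where no library held more than 11 counts (log2 difference −3.29, SE 0.88, adjusted p = 0.00705). The SNCG libraries of the lines overlapped. The highest HepG2 value was that of the outlying library, EXACT1 replicate 1, and the mean of the HepG2 control libraries was 0.147 CPM.

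Neuronal and broadly used relatives were also compared within each library, as the log2 ratio of the 2 genes' counts per kb, which needs no scaling between libraries. For SNAP25 over SNAP23 the ratio was −7.35 ± 1.26 (SD, n = 6) in HepG2 and 3.57 ± 0.42 in SH-SY5Y, so the pair changed order between the lines. In linear terms SNAP25 was at 0.00680 of the SNAP23 level per kb in HepG2 and at 12.0 times that level in SH-SY5Y. DNM1 over DNM2 moved from −7.60 ± 0.36 to −0.30 ± 0.24, so that the neuronal dynamin came close to the general one in SH-SY5Y without exceeding it in any library. SYP, the vesicle protein synaptophysin (X:49187804-49200259), over SYPL1, its general relative (7:106090503-106112576), moved from −4.30 ± 1.24 to 0.08 ± 1.05. VAMP2 over VAMP3 moved from −3.17 ± 0.65 to −0.32 ± 0.45.

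The differences were 10.91, 7.30, 4.38 and 2.85 on the log2 scale in that order. In each of the 4 pairs all 6 SH-SY5Y libraries lay above all 6 HepG2 libraries. The 2-sided exact permutation p of each pair was 0.00216 (adjusted over the 4 pairs, 0.00216), the smallest that 924 splits of 6 against 6 libraries can give. The genes of each pair had already been called in opposite directions from these libraries, so this p adds no separate support. For SNAP25 with SNAP23 and SYP with SYPL1 it was fixed in advance, as neither gene overlapped between the lines. In SH-SY5Y control replicate 2 had a SYP to SYPL1 ratio of 2.23, and the other 5 libraries ranged from −0.42 to −0.22. On this scale the mean above 0 thus came from that library alone. The sign depends on the length used, here merged exons (5215 and 2804 bases, longest transcripts 2498 and 2151 bases). In CPM without division by length, SYP was above SYPL1 in every SH-SY5Y library. Without both outlying libraries the 4 differences were 11.2, 7.41, 4.45 and 2.92. Behind these ratios SYP had 40.1, 42.7 and 137.6 CPM in SH-SY5Y and 5.17, 6.56 and 17.4 CPM in HepG2 as lowest, median and highest library (log2 difference 2.76, SE 0.40, adjusted p = 0.000102). SYPL1 had 15.8, 28.1 and 30.9 CPM in SH-SY5Y and 33.4, 94.97 and 102.7 CPM in HepG2 (log2 difference −1.69, SE 0.28, adjusted p = 0.000255).

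**Figure D3:**
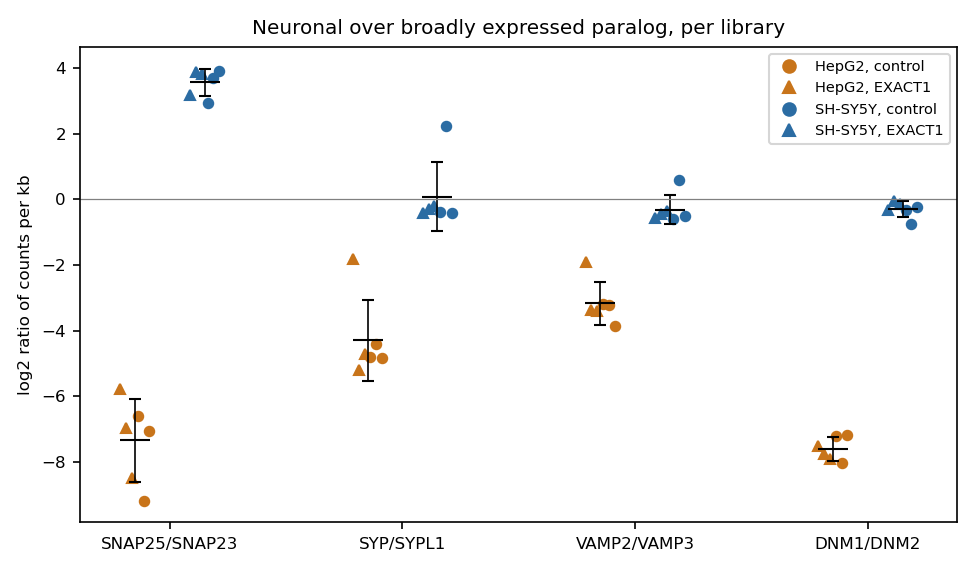
Log2 ratio of the neuronal to the broadly used relative in each library (points), from counts per kb with 0.5 added to each count; black bars are the mean and SD of the 6 libraries of a line. All SH-SY5Y points lie above all HepG2 points in each pair. With lengths from merged exons, only the SNAP25 to SNAP23 ratio is above 0 in every SH-SY5Y library.

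With EXACT1 no synaptic gene passed the test in either line. In HepG2, 0 of 17139 genes passed the test (0%, edgeR), among them 0 of the 29 synaptic genes tested, with 164 genes at an unadjusted p under 0.05. In SH-SY5Y, 0 of 19853 passed (0%), among them 0 of the 43 tested, with 200 at an unadjusted p under 0.05. DESeq2 called 11 and 5 genes in the 2 lines, none of them of this set. The median log2 change was 0.03 over the tested synaptic genes in HepG2 and 0.03 in SH-SY5Y, against 0.00 and −0.01 over all genes. Without EXACT1 replicate 1 the HepG2 median was −0.07 over 31 synaptic genes, against −0.003 over all genes. Of the 31 genes, 8 lay above and 23 below 0 (15 and 14 with that library), and none had an unadjusted p under 0.05 (edgeR). They included RAB3C and PCLO, which were not tested with all libraries. Without control replicate 2 the SH-SY5Y median was 0.00.

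Precision differed with the outlying libraries, as the plot of the EXACT1 changes shows. In HepG2 the 95% interval of the change lay within 1 on the log2 scale on both sides for 7 of the 29 genes, and for 19 of 31 once EXACT1 replicate 1 was left out. In SH-SY5Y it did so for 19 of 43 genes, and for 37 of 43 once control replicate 2 was left out. The median SE fell from 0.41 to 0.23 and from 0.32 to 0.13. A change of that size remained possible for the other genes.

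The synaptic gene with the smallest p in HepG2 was SNCG. Its libraries were at 1.78, 0.519 and 0.410 CPM with EXACT1 (71, 31 and 26 counts) and at 0.192, 0.0838 and 0.165 CPM in the control (11, 5 and 10 counts). All EXACT1 libraries thus lay above all control libraries, at low counts, which also held for 6.14% of all genes in that direction, while the opposite order held for 4.16%. The log2 change was 2.48 (SE 0.73, unadjusted p = 0.0125, edgeR adjusted p = 0.792) and did not pass. It was 1.63 (SE 0.85, unadjusted p = 0.0804) without EXACT1 replicate 1. In SH-SY5Y SNCG was too low to be tested.

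DNM2 and VAMP2 followed in HepG2, also without passing. DNM2 was at 452, 180 and 169 CPM with EXACT1 and at 176, 177 and 166 CPM in the control, and VAMP2 at 35.5, 13.8 and 13.1 CPM against 15.0, 14.8 and 10.4 CPM. In both genes replicate 1 of EXACT1 was high and the other 2 lay near the control values. The log2 changes were 0.52 (SE 0.38) and 0.53 (SE 0.41), and without that library they were 0.00 for both, with 95% intervals from −0.13 to 0.13 and from −0.37 to 0.36.

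In SH-SY5Y the smallest p values belonged to SYT5, CPLX1 and SYP. SYT5 was at 7.35, 9.09 and 7.61 CPM with EXACT1 and at 10.1, 33.9 and 9.09 CPM in the control (log2 change −1.18, SE 0.54, unadjusted p = 0.0693, adjusted p = 0.796). CPLX1 was at 17.1, 19.7 and 18.4 CPM against 18.8, 65.7 and 18.3 CPM, and SYP at 40.1, 42.1 and 44.0 CPM against 40.5, 137.6 and 43.3 CPM. In all 3 genes control replicate 2 was the high value, and without it the changes were −0.28 (SE 0.16), −0.02 (SE 0.11) and −0.01 (SE 0.08). SYT5 and VAMP3 were the only 2 of the 43 genes with all EXACT1 libraries below all control libraries, and none had the opposite order. Over all genes these orders held for 3.53% and 4.14%. The SYT5 order rests on 9.087 CPM in EXACT1 replicate 2 against 9.093 CPM in control replicate 3. In unscaled counts these libraries held 902 and 897, the other way round. VAMP3 was at 40.1, 39.6 and 38.2 CPM with EXACT1 and at 41.3, 48.1 and 43.4 CPM in the control (log2 change −0.19, SE 0.19).

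The EXACT1 change did not pass a test of its difference between the lines for any of the 44 genes, nor for any of the 22009 genes tested (0%, edgeR), with 1907 at an unadjusted p under 0.05. DESeq2 called 26 genes, none of this set. RAB3C, SYN2 and PCLO had the smallest p values of the set. RAB3C was at 34.7, 35.95 and 38.1 CPM with EXACT1 and at 29.6, 21.95 and 42.1 CPM in the control in SH-SY5Y, whereas its HepG2 counts were 0, 3 and 0 against 10, 10 and 13. The difference of changes, SH-SY5Y minus HepG2, was 3.45 (SE 0.84, unadjusted p = 0.00177, adjusted p = 0.487). It was 5.44 (SE 1.69) for SYN2 and 2.91 (SE 1.08) for PCLO. For SYN2 the HepG2 counts were 0 in all EXACT1 libraries and 8, 0 and 4 in the control, and for PCLO they were 0, 4 and 4 against 11, 30 and 4. These differences therefore rest on a few counts in HepG2.

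The 2 outlying libraries shifted many of the synaptic genes at once, in both directions. Of 21 synaptic genes with a mean of at least 1 CPM in HepG2, 11 were higher and 7 lower in EXACT1 replicate 1 than in all other 5 libraries of the line, where 47.5% and 43.6% of all genes did so. Of 40 such genes in SH-SY5Y, 17 were higher and 19 lower in control replicate 2, where 42.2% and 47.2% of all genes did so. Against the mean of the other 2 libraries of its group, STX1A was 3.48-fold higher and HOMER1 4.43-fold lower in the HepG2 library. CPLX1 was 3.53-fold and SYP 3.28-fold higher, and SYT4 5.23-fold lower, in the SH-SY5Y library.

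Across these genes the shift moved with the GC content of the longest transcript, with r = 0.73 over 21 genes and r = 0.77 over 40 genes, against 0.69 and 0.65 over all genes. With the log of transcript length r was −0.26 and −0.54. These are descriptions across genes of a single library each. The part of library composition in the changes given for EXACT1 was not tested beyond leaving these libraries out.

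A further set of 187 genes of the synapse, in 11 lists that hold none of the 46 and were chosen by role, was examined for the same comparisons. Of 163 tested, 82 were higher in SH-SY5Y and 30 in HepG2, beside 36.3% and 28.5% of all genes. Fewer of the listed genes passed the count filter within HepG2 alone than within SH-SY5Y alone. The split of these calls was therefore also in part set by the filter. Lists with no gene higher in HepG2 were the ionotropic glutamate and GABA receptors (28 genes, 15 of 17 tested higher, none lower, median log2 difference 7.65, or 5.94 with the 4 genes at 0 in HepG2 at their lower bound) and the other synaptotagmins and calcium sensors (11 of 13 higher, none lower, median 6.73, or 6.66 with 2 genes at their bound). Within HepG2 alone only 2 of these receptor genes and 6 of these synaptotagmins and sensors passed the count filter. The absence of genes higher in HepG2 was therefore largely set by the filter. Among the synaptotagmins and sensors, RPH3A, rabphilin, was at 63.5 ± 6.49 CPM (SD, n = 6) in SH-SY5Y and 0.0157 ± 0.0386 CPM in HepG2. Of the 7 vesicular transmitter transporters, 6 were tested, 3 were higher in SH-SY5Y, 1 was higher in HepG2 and 2 did not pass. Only 2 of the 7 had a mean above 1 CPM in SH-SY5Y. These were the acetylcholine transporter SLC18A3 (22.0 ± 12.9 CPM) and SLC18A1, a monoamine transporter (18.5 ± 0.942 CPM), both at 0 in all HepG2 libraries. Without control replicate 2 SLC18A3 was at 16.8 ± 2.12 CPM (SD, n = 5) in SH-SY5Y.

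The proton pump that fills vesicles, which all cells use in lysosomes, was called in few members: 3 of 18 tested genes were higher in SH-SY5Y, 2 in HepG2 and 13 did not pass (median log2 difference −0.04). Of the other SNAREs and their partners, 5 of 17 were higher in SH-SY5Y and 4 in HepG2, shares near those over all genes. STXBP2 and VAMP8, which serve secretion outside neurons, were at 61.1 ± 49.0 and 76.9 ± 66.6 CPM in HepG2, against 0.595 ± 0.373 and 0.348 ± 0.220 CPM in SH-SY5Y. Without the outlying library of each line they were at 41.1 ± 2.14 and 49.7 ± 2.52 CPM in HepG2 and at 0.493 ± 0.309 and 0.266 ± 0.100 CPM in SH-SY5Y (SD, n = 5). CADPS2, the relative of CADPS, ran opposite to it, with 38.7 ± 11.6 CPM in HepG2 against 0.0664 ± 0.0789 CPM for SH-SY5Y. With EXACT1, 0 of 107 of the listed genes tested in HepG2 and 0 of 157 in SH-SY5Y passed the test.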

How the data were processed

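The authors deposited 1 table of whole-number gene counts for 18 libraries (60612 rows, Ensembl IDs). The build was GRCh38, and reads passed through HISAT2, StringTie and cutadapt, with limma and edgeR also listed, per the submitters' processing notes. Tool versions, annotation and strand setting: not given in the sources used here. In the deposited counts, 4 was the commonest value above 0 (12546 of 279080 entries) and 8 and 12 were commoner than their neighbours, so a count need not be a sequenced fragment. If the floor were 12 counts in place of 3, lower bounds would be 4 times smaller.

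The HEK293A columns were left out because their values do not match their row IDs (Spearman rho of mean CPM 0.0545 with HepG2, against 0.823 between HepG2 and SH-SY5Y). Symbols and exon lengths came from GENCODE 29. Lines were compared over 12 libraries and EXACT1 over the 6 of each line with edgeR 4.0.16 (R 4.3.3; filterByExpr, TMM, robust quasi-likelihood test, Benjamini-Hochberg over all genes tested, threshold 0.05), checked on simulated counts. DESeq2 1.42.0, other scalings and filters, a replicate block and left-out libraries were alternatives. CPM are relative to TMM-scaled totals, except for genes named as overlapping a member, whose CPM are relative to unscaled library totals. Levels between genes are per kb of merged exons. No 2 replicates were alike within counting noise (chi-square per gene at least 18.0).

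The members and lists were chosen with earlier results of these data known. Named were the genes of the 4 pairs, and per role the highest per length in each line and the most changed in each direction, plus the 3 smallest p values in each EXACT1 test. The other genes given values were added to account for the members. Some genes of the other synapse and marker lists are counted but not reported here by name.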

Additional observations from a re-analysis of the deposited data

Results flagged for a closer look

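In 4 of the 8 sets of 6 paralog ratios, a single library lay far from the other 5 of its line by Dixon's test; chance gives such a gap in about 1 of 20 sets. The log2 ratio of SYP to SYPL1 was −1.83 in EXACT1 replicate 1 of HepG2 and 2.23 in control replicate 2 of SH-SY5Y. The log2 ratio of VAMP2 to VAMP3 was −1.93 in the same HepG2 library and 0.58 in the same SH-SY5Y library. The SNAP25 to SNAP23 and DNM1 to DNM2 ratios had no such library.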

How the results depend on the processing

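The count of synaptic genes called between the lines was 25 to 33 higher in SH-SY5Y and 8 to 11 higher in HepG2 over all alternatives run, and no synaptic gene was called with EXACT1 in any of them. Restricting the test to a mean CPM of at least 5 gave 8058 genes called between lines in place of 14247, because 12171 genes were tested. For EXACT1 in HepG2, DESeq2 called 11 genes over all genes, and leaving out 1 library at a time gave 0 to 2, with 2 without EXACT1 replicate 1. In SH-SY5Y, DESeq2 called 5, and leaving out 1 library gave 0 to 1, with 1 without control replicate 2. For the difference between lines, DESeq2 called 26 and the fit without both outlying libraries 2. The cause of these differences was not tested.

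CPLX2 turned to −0.00291 without EXACT1 replicate 3 of HepG2, to −0.0046 without EXACT1 replicate 1 of SH-SY5Y and to −0.126 in the EXACT1 libraries alone, and leaving out 1 library at a time gave −0.0046 to 0.246. With library totals as the only scaling, chosen after seeing the data, GPHN was 0.0152 and HOMER1 0.256. In HepG2 the EXACT1 changes of DNM2 and VAMP2 were −0.00445 and −0.0036 without EXACT1 replicate 1, and reached 0.731 and 0.743 with another library left out.

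The replicate numbers were not taken to pair the libraries: the deviations of same-numbered libraries correlated at 0.006, −0.017 and 0.029 in HepG2 and at 0.239, 0.088 and 0.035 in SH-SY5Y, and not every library correlated best with its own number. With the replicate block, 32 and 10 synaptic genes were called between lines and none with EXACT1. The replicate block without the outlying library, chosen after seeing the data, called 35 genes in HepG2 and 24 in SH-SY5Y over all genes, none of them synaptic genes.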

Other observations

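The SH-SY5Y libraries numbered 1 of both plasmids stood together for some synaptic genes, which were chosen after their values were seen. SYT4 was at 73.4 CPM (EXACT1) and 69.7 CPM (control) in these 2 libraries and at 32.7, 35.2 and 35.4 CPM in the other 3, leaving out control replicate 2. SNAP25 was at 90.1 and 83.2 CPM against 136.5, 128.3 and 141.7 CPM, and RIMS1 at 3.89 and 4.35 CPM against 2.46, 1.86 and 2.03 CPM. Of 40 synaptic genes with a mean of at least 1 CPM, 9 were higher and 10 lower in the libraries numbered 1 than in all of those 3, against 11.5% and 21.0% of the 14249 genes with such a mean. The labels do not say what a shared number stands for.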
